A study of Artemia parthenogenetic lineage with 6 samples.

Results

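The start-site peaks of short genes are the merged ATAC-seq peaks whose listed distance to the nearest transcriptional start site (TSS) was 0 and whose gene had a length of at most 10000 bp. There were 299 of them among 112790 merged peaks, which is 8.38% of the 3566 start-site peaks, and each belonged to a different gene. They were compared with the 3267 start-site peaks of longer genes, of which 3266 passed the filter on low counts, while all 299 short-gene peaks passed it. The libraries came from whole cysts of wild-type (WT) *Artemia parthenogenetica*, a brine shrimp that reproduces without males. ArD_0h denotes cysts in diapause with no treatment by their labels, and ArR_5h denotes cysts of the same batch collected 5 h after embryonic diapause termination (EDT), rehydrated in cold artificial seawater and then kept in warm seawater under constant light. Each group held 3 libraries described as biological replicates. The treatment labels of ArR_5h replicates 1, 2 and 3 give 28, 29 and 30 °C, although the protocol shared by the libraries gives 28 °C. The comparison asks where chromatin accessibility at the starts of short genes differed between diapause and 5 h after EDT.

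An encysted *Artemia* embryo is arrested as a gastrula with very low metabolism, and development resumes when diapause has ended and water, oxygen and warmth return. In ATAC-seq the Tn5 transposase inserts adaptors into DNA that is not covered by nucleosomes, so that the number of reads in a peak rises with the accessibility of that stretch. The start of an active gene is usually kept free of nucleosomes by transcription factors, remodelling complexes and the transcription machinery, and an open start is therefore common at genes that are transcribed or poised, without being a measure of transcription. Whole cysts were used, so that a higher count cannot be told apart from a larger share of cells or nuclei with an open site. The labelled material could not be checked against marker genes, because the table gives gene identifiers without names.

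The 6 libraries held 5239170 to 9366963 counts in peaks, which was 10.6% to 14.8% of the library totals behind the deposited RPM values. The lowest of these shares belonged to ArD_0h replicate 1, and this library also stood apart at start sites, where its levels were low. In the 3266 longer-gene start-site peaks its log2 CPM (counts in a peak relative to all counts in peaks of the library, after TMM scaling) differed from the mean of ArD_0h replicates 2 and 3 by a median of -1.21. The same median was -0.55 in the short-gene peaks and 0.01 over all tested peaks. Replicate 1 of ArD_0h was the lowest of the 6 libraries in 165 short-gene peaks (55.2%), against 89.8% of the longer-gene peaks and 28.4% of all peaks. The main results below are therefore given with and without this library. Its part in them beyond these values was not tested.

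The 299 genes spanned 155 to 9981 bp, with a median of 2718 bp, and the longer genes a median of 55358 bp. Among them, 137 were at most 2000 bp long, 50 above 2000 and up to 5000 bp, and 112 above 5000 bp. Of the 2649 genes of at most 10000 bp that the table lists as nearest to any peak, 11.3% had a peak over the start, against 34.9% of the 9361 longer genes. This share was 8.77% of 1563 genes of at most 2000 bp, 10.5% of 478 genes above 2000 and up to 5000 bp, and 18.4% of 608 genes above 5000 and up to 10000 bp. A peak over the start was thus less frequent among the listed short genes, a difference given here without a test.

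The width of the short-gene start-site peaks ran from 200 to 2260 bp (median 634 bp), where the longer-gene peaks had a median of 770 bp and all peaks one of 328 bp. They reached a median of 292 bp upstream and 295 bp downstream of the TSS. The merged peaks held a median of 4 summits, against 5 at longer genes, and 57 of them (19.1%) had a single summit, against 7.01% at longer genes. In 29 cases the peak covered the whole gene, so that the start could not be separated from the gene body or the gene end. A start of another listed gene on the opposite strand lay within 1000 bp in 3 of the 299 peaks (1.0%), against 3.12% at longer genes.

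The level of the short-gene peaks, as a mean over the 6 libraries, ran from 2.69 to 95.2 CPM with a median of 13.6 CPM. Per length, their median was 19.9 CPM per kb of peak, against 20.9 at longer genes and 16.6 over all tested peaks. The middle part of their distribution lay between 16.0 and 28.5 CPM per kb. By this scale, 211 of the 299 lay above the median of all peaks. The lowest count in any library was 5, and 13 of the peaks had a count under 10 in at least 1 library, where counting error weighs most.

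At 5 h after EDT, more short-gene start-site peaks were higher than lower, but lower peaks made up a larger part than at longer genes. A peak was called when the Benjamini-Hochberg adjusted p of edgeR's quasi-likelihood test, over all 112211 tested peaks, was at most 0.05 and the log2 difference (ArR_5h minus ArD_0h) exceeded 1 in size. By this rule 65 of the 299 (21.7%) were higher in ArR_5h, where 14.5% of all tested peaks were, and 17 (5.69%) were lower, where 15.2% of all tested peaks were. The other 217 passed neither side of the rule. Among the longer-gene start-site peaks 915 (28.0%) were higher and 18 (0.551%) lower. Short genes thus held 17 of the 35 start-site peaks called lower and 65 of the 980 called higher. The difference in these shares between short and longer genes was not tested.

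The median log2 difference was 0.46 in the short-gene peaks, 0.72 in the longer-gene peaks and -0.07 over all tested peaks. The middle part of the short-gene values ran from -0.22 to 0.96 and that of the longer-gene values from 0.41 to 1.05. A positive difference was found in 203 short-gene peaks (67.9%) and in 93.4% of the longer-gene peaks. The CPM of all 3 ArR_5h libraries lay above all 3 ArD_0h libraries in 125 short-gene peaks (41.8%, against 26.4% of all tested peaks), and below them in 46 (15.4%, against 25.7%). At longer genes these shares were 56.0% and 1.19%. With ArD_0h replicate 1 set aside, the shares above and below were 46.2% and 18.7% at short genes, 56.6% and 8.3% at longer genes and 29.9% and 29.1% over all tested peaks.

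Without ArD_0h replicate 1 the number of short-gene peaks called higher fell from 65 to 38 (12.7%), close to the 10.8% of all peaks called higher in the same fit, while 17 (5.69%) were again called lower, against 12.6% of all peaks. Of the calls made with all libraries, 37 of the 65 higher and 13 of the 17 lower were also made without that library. The longer-gene peaks called higher dropped to 449 (13.7%), and 17 (0.52%) were called lower. The median log2 difference was then 0.23 at short genes and 0.42 at longer genes. Leaving out ArR_5h replicate 1 left 47 short-gene peaks called higher and 10 called lower, where 10.1% and 8.49% of all peaks were called.

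The start-site peaks had higher levels than most peaks, with a median of 13.6 CPM at short genes and 16.2 CPM at longer genes against 5.48 CPM over all tested peaks, and a fit was therefore also made with a loess trend on level removed from each library. In that fit 40 short-gene peaks (13.4%) were called higher and 29 (9.7%) lower, where 13.8% and 13.5% of all peaks were called. With the trend removed and ArD_0h replicate 1 left out together, 21 (7.02%) were higher and 17 (5.69%) lower, where 10% and 10.2% of all peaks were called. The median of the short-gene peaks was then 0.05, and that of the longer-gene peaks 0.18 with 7.65% called higher and 0.765% lower. Of the 65 higher and 17 lower calls made with all libraries, 20 and 12 were made in this fit too. The share of short-gene peaks called higher was thus near that of all peaks with the trend alone removed, at 13.4% beside 13.8%. It lay below that of all peaks, at 7.02% beside 10%, when both changes were made. Lower calls made up 5.69% to 9.7% of short-gene peaks and 0.49% to 0.765% of longer-gene peaks over these 4 fits. With all libraries and with each library left out in turn, 34 peaks (11.4%) were called higher every time and 8 (2.68%) lower, where 7.16% and 6.36% of all tested peaks were. The plot of shares called shows these 4 fits side by side.

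**Figure D1:**
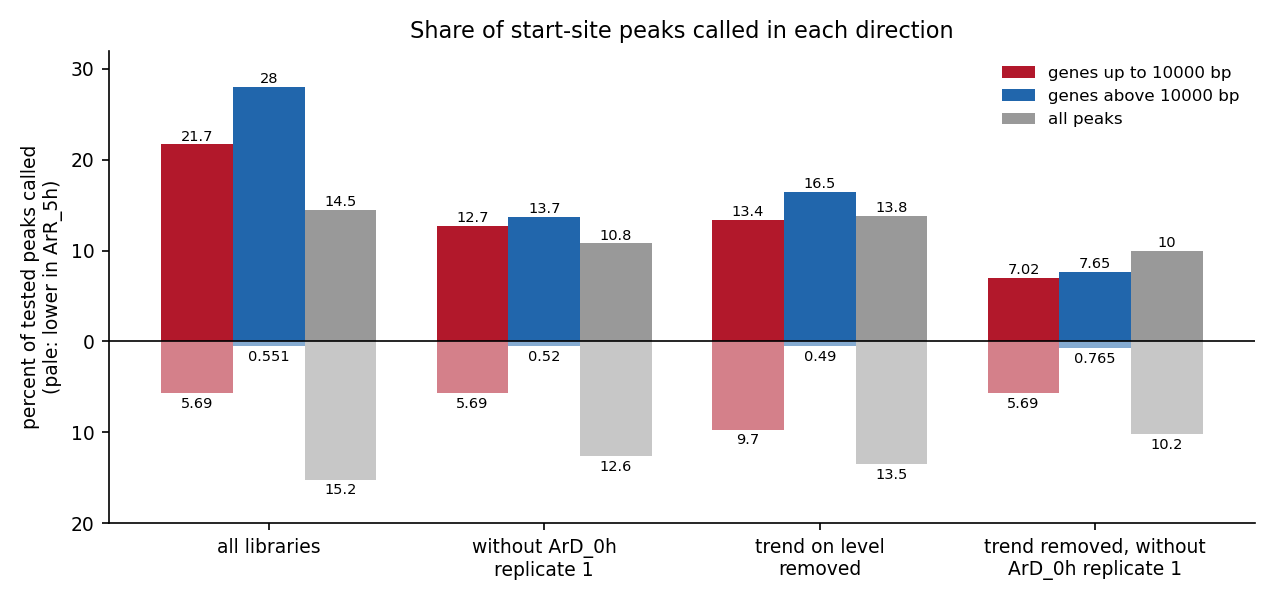
Percent of tested peaks called higher (solid bars, upward) or lower (pale bars, downward) in ArR_5h than in ArD_0h, for start-site peaks of genes up to 10000 bp, of longer genes and for all peaks, in 4 fits. The higher bar of short genes falls from 21.7% with all libraries to 7.02% in the last fit, while the lower bar stays between 5.69% and 9.7%, above that of longer genes in each fit.

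By library, the short-gene start-site peaks of ArD_0h replicates 1 to 3 took 0.382%, 0.515% and 0.518% of the counts in peaks, and those of ArR_5h replicates 1 to 3 took 0.613%, 0.605% and 0.568%. All ArR_5h libraries lay above all ArD_0h libraries, and ArD_0h replicate 1 lay lowest. ArD_0h thus averaged 0.472% ± 0.0777 (SD, n = 3) and ArR_5h 0.595% ± 0.024 (SD, n = 3), a difference of 0.124 percentage points. The longer-gene peaks took 2.65%, 5.66% and 5.85% in ArD_0h and 7.57%, 7.23% and 6.54% in ArR_5h. Their share in ArD_0h replicate 1 was further from the other libraries than that of the short-gene peaks.

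The median log2 CPM of the short-gene peaks stood at 2.99, 3.70 and 3.72 in ArD_0h replicates 1 to 3, against 4.01, 3.98 and 3.86 in ArR_5h replicates 1 to 3. The libraries of the groups did not overlap, but ArD_0h replicates 2 and 3 lay much nearer to ArR_5h than to replicate 1. Over the 9 pairs of an ArR_5h and an ArD_0h library, the median log2 difference of short-gene peaks ran from 0.12 to 1.29, that of longer-gene peaks from 0.24 to 1.73 and that of all peaks from -0.11 to 0.0. The plot of levels by library gives the spread over peaks behind these medians.

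**Figure D2:**
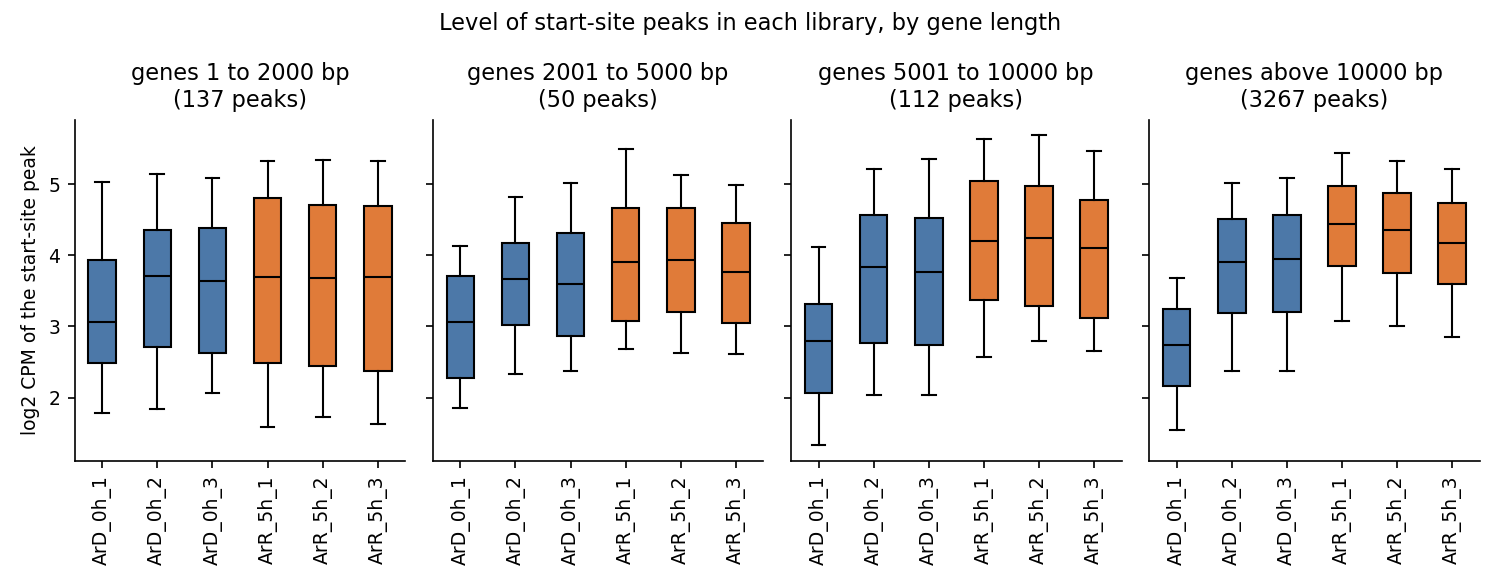
Level of start-site peaks as log2 CPM in each of the 6 libraries, in 4 panels by gene length. Boxes give the quartiles and median, whiskers the 10th and 90th percentile over peaks. In genes up to 2000 bp the ArR_5h medians (3.69, 3.68 and 3.70) lie beside those of ArD_0h replicates 2 and 3 (3.71 and 3.64), while in genes above 5000 and up to 10000 bp they lie above them (4.20, 4.24 and 4.10 against 3.83 and 3.76).

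Within the short genes the difference moved with gene length. In the 137 genes of at most 2000 bp the median log2 difference was 0.04, with 70 positive values, 20 peaks (14.6%) called higher and 13 (9.49%) lower. In the 50 genes above 2000 and up to 5000 bp the median was 0.57, with 11 peaks (22.0%) higher and 3 (6.0%) lower. In the 112 genes above 5000 and up to 10000 bp it was 0.69, with 34 peaks (30.4%) higher and 1 (0.893%) lower. Genes above 10000 and up to 50000 bp (0.70, 25.5% higher and 0.618% lower) and longer ones (0.74, 30.0% and 0.498%) gave values near those of the last class. Of the 17 lower calls, 13 were at genes of at most 2000 bp. In that class the share called higher was near that of all tested peaks (14.5%), and the share called lower was below that of all tested peaks (15.2%).

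The same order was seen without ArD_0h replicate 1, where the medians were -0.02, 0.35 and 0.49 in the 3 classes from short to long and the calls 11 higher and 13 lower, 8 and 3, and 19 and 1. In percent these calls were 8.03% and 9.49%, 16.0% and 6.0%, and 17.0% and 0.893%, against 10.8% and 12.6% of all peaks. With the trend on level removed as well, the medians were -0.14, 0.13 and 0.25. The median in genes of at most 2000 bp was near 0 with all libraries and took either sign with these settings. The deviation of ArD_0h replicate 1 from replicates 2 and 3 followed gene length too, with medians of -0.14, -0.70 and -1.17 on the log2 scale in the 3 classes. This library was the lowest of 6 in 52 of 137, 33 of 50 and 80 of 112 peaks.

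Across the 299 peaks, Spearman's rho of gene length with the log2 difference was 0.31, and 0.26 without ArD_0h replicate 1. With the trend on level removed and without that library it was 0.22. The correlation of gene length with the deviation of ArD_0h replicate 1 was -0.32. At the longer genes rho of length with the log2 difference was 0.06. These are descriptions across peaks that share the same 6 libraries, and peaks are not replicates.

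**Figure D3:**
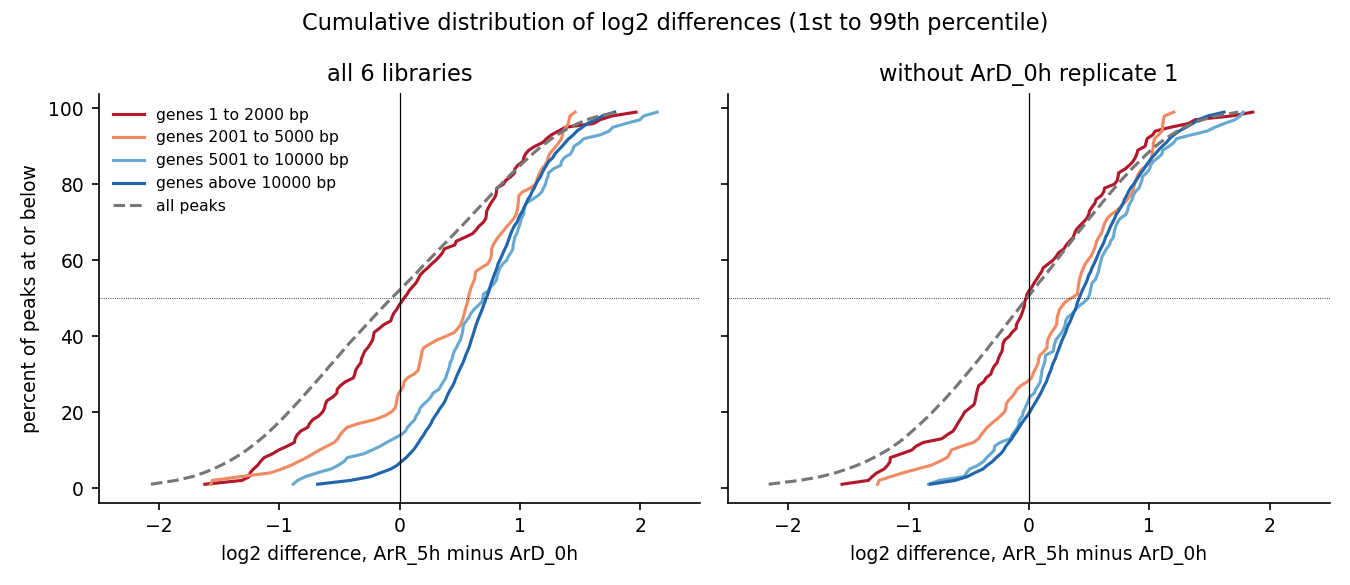
Cumulative distribution of the log2 difference (ArR_5h minus ArD_0h) for start-site peaks in 4 classes of gene length and for all peaks, with all 6 libraries (left) and without ArD_0h replicate 1 (right). The curve of genes up to 2000 bp crosses 50% of peaks at 0.04 on the left and -0.02 on the right, and that of genes above 5000 and up to 10000 bp at 0.69 and 0.49.

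**Figure D4:**
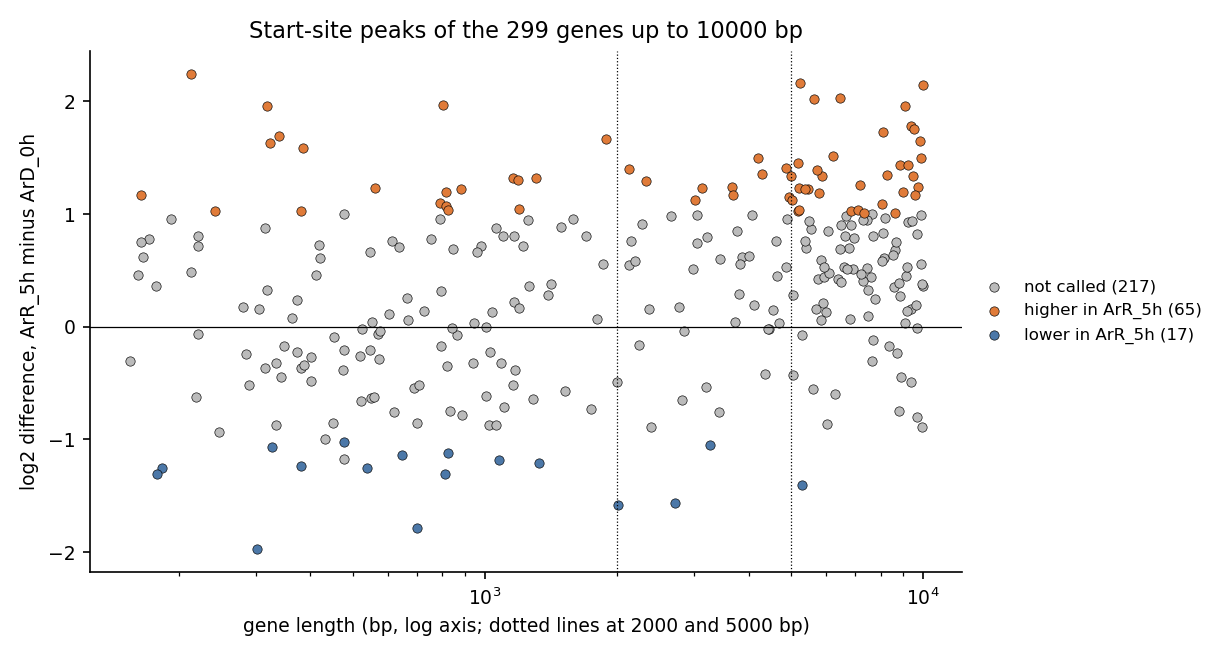
Log2 difference (ArR_5h minus ArD_0h) of each of the 299 short-gene start-site peaks against gene length on a log axis, with the 65 higher and 17 lower calls coloured. Of the 17 lower peaks, 13 lie left of the line at 2000 bp, and 1 lies right of that at 5000 bp.

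The dependence on gene length was also described within classes of level, and it was larger among the weaker peaks. In genes of at most 2000 bp, the 70 peaks below the median level of 13.6 CPM had a median log2 difference of -0.23, with 7 higher and 11 lower, and the 67 at or above it one of 0.36, with 13 higher and 2 lower. In genes above 5000 and up to 10000 bp the median was 0.69 below that level, with 18 (34.0%) higher and 0 lower of 53. It was 0.70 at or above it, with 16 (27.1%) higher and 1 (1.69%) lower of 59. The class between lay at 0.32 below and 0.75 at or above it. When ArD_0h replicate 1 was left out, the median below that level was -0.22 in genes of at most 2000 bp, with 5 (7.14%) higher and 12 (17.1%) lower. It was 0.60 in genes above 5000 bp, with 12 (22.6%) higher and 0 lower. At or above that level the medians were 0.20, with 6 (8.96%) higher and 1 (1.49%) lower, and 0.32, with 7 (11.9%) higher and 1 (1.69%) lower. Of all peaks, 10.8% were called higher and 12.6% lower in that fit. After removal of the trend as well, the medians below that level were -0.19 and 0.43 in the same length classes, still apart. At or above that level they were -0.08 and 0.08, close to each other. In the lowest quartile group of short-gene peaks by level, under 7.02 CPM, the median was -0.01 with 12 (16.0%) higher and 8 (10.7%) lower of 75. Longer-gene peaks in the same range of level had a median of 0.81. All peaks in that range had one of -0.27, with 9.91% called higher and 17.8% lower. In the other 3 groups the short-gene medians were 0.51, 0.59 and 0.55, beside 0.80, 0.68 and 0.65 at longer genes. Leaving out that library, the lowest group had 0.05 beside 0.66, and the other 3 had 0.28, 0.32 and 0.25 beside 0.52, 0.37 and 0.31, so that short and longer genes lay close together in the upper 2 groups.

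Peaks with a single summit differed from the others, also in level and width. Their medians were 4.44 CPM and 283 bp, against 16.1 CPM and 752 bp with several summits. The parts of summit number, level and width in the contrast below were not tested separately. The 57 single-summit peaks had a median log2 difference of -0.37, with 5 higher and 7 lower, and the 242 peaks with several summits one of 0.56, with 60 higher and 10 lower. Called higher were thus 8.77% and 24.8%, and lower 12.3% and 4.13%, where 14.5% and 15.2% of all tested peaks were. When ArD_0h replicate 1 was left out, the medians were -0.26 (4 higher, 8 lower) and 0.30 (34 higher, 9 lower). After removal of the trend as well, they were -0.05 (4 higher, 4 lower) and 0.08 (17 higher, 13 lower), so that little of the contrast was left. Longer-gene peaks with a single summit had a median of 0.70, with 67 higher and 11 lower of 228, and of 0.60 without that library. The 29 peaks that covered the whole gene had a median of 0.16, with 2 higher and 1 lower, and of 0.03 with 0 higher and 1 lower without ArD_0h replicate 1. By strand, 42 of 160 plus-strand genes (26.2%) and 23 of 139 minus-strand genes (16.5%) were called higher and 11 and 6 lower, with medians of 0.47 and 0.44. Leaving out that library, the higher calls were 24 (15.0%) and 14 (10.1%), and the medians 0.22 and 0.24. None of these contrasts between classes of peaks was tested.

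The 65 peaks called higher had a median log2 difference of 1.30 and adjusted p of 0.000143 to 0.0429 (edgeR). Their genes had a median length of 5171 bp. In 64 of them no ArR_5h library overlapped an ArD_0h library, and ArD_0h replicate 1 was the lowest library in 59. The 10 named below are those with the largest log2 difference among higher peaks of at least median level without overlap. The gene identifiers have no names in the table, and coordinates are those of the contigs of the *A. franciscana* assembly used by the authors.

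The peak of evm.TU.ctg138.17, a gene of 9981 bp, lay on ctg138 from 1320133 to 1320710. In replicate order, it had 2.64, 20.8 and 19.9 CPM in ArD_0h against 74.6, 57.3 and 59.7 in ArR_5h. All ArR_5h values exceeded all ArD_0h values, and ArD_0h replicate 1 was far below its 2 fellow replicates. The log2 difference was 2.15 (SE 0.429, edgeR adjusted p = 0.000821), and 1.65 without that library. At 67.8 CPM per kb it was also among the 5 strongest short-gene peaks per length.

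The peak of evm.TU.ctg168.19, a gene of 801 bp, lay on ctg168 from 746801 to 747773. Its CPM were 7.92, 20.3 and 20.5 in ArD_0h and 68.9, 61.8 and 59.4 in ArR_5h. The groups were well apart with or without the low ArD_0h replicate 1. The log2 difference was 1.97 (SE 0.324, edgeR adjusted p = 0.000212), and 1.63 without that library.

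The peak of evm.TU.ctg989.8 (9557 bp; ctg989 from 338767 to 339612) had 6.95, 13.9 and 12.9 CPM in ArD_0h and 43.4, 37.7 and 33.0 in ArR_5h. That of evm.TU.ctg108.15 (8119 bp; ctg108 from 997434 to 998016) had 4.72, 10.1 and 7.40 CPM in ArD_0h and 25.2, 24.3 and 24.2 in ArR_5h. In both the ArR_5h libraries were close together and above each ArD_0h library. The log2 differences were 1.76 (SE 0.314, edgeR adjusted p = 0.000372) and 1.73 (SE 0.307, adjusted p = 0.000365), and 1.5 and 1.47 without ArD_0h replicate 1.

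Among genes under 2000 bp, the peak of evm.TU.ctg1585.4 (324 bp; ctg1585 from 158275 to 159026) had 7.92, 18.6 and 13.5 CPM in ArD_0h and 45.3, 44.3 and 34.1 in ArR_5h. That of evm.TU.ctg79.13 (385 bp; ctg79 from 1283193 to 1283824) had 8.34, 13.6 and 13.3 CPM in ArD_0h and 36.3, 38.0 and 31.3 in ArR_5h. That of evm.TU.ctg1870.5 (1889 bp; ctg1870 from 142423 to 143328) had 7.64, 24.0 and 21.6 CPM in ArD_0h and 59.8, 49.8 and 59.6 in ArR_5h. Genes this short, whose class as a whole had a median near 0, thus included some of the largest rises. The log2 differences were 1.63, 1.59 and 1.67, and 1.35, 1.39 and 1.29 without ArD_0h replicate 1, with edgeR adjusted p of 0.000722, 0.00057 and 0.000891. The remaining 3 peaks, those of evm.TU.ctg669.8, evm.TU.ctg163.19 and evm.TU.ctg634.10, had log2 differences of 1.52, 1.44 and 1.41 and values of 1.11, 1.09 and 1.01 without that library. With the trend on level also removed, these 3 were 0.84, 0.84 and 0.80, inside the limit.

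The largest rise of all, outside this selection because of its low level and named after its values were seen, was at evm.TU.ctg510.18, a gene of 213 bp with a peak on ctg510 from 793131 to 793475. It had 1.11, 3.67 and 1.90 CPM in ArD_0h and 11.4, 10.5 and 9.74 in ArR_5h. The ArR_5h libraries lay close together and well above all ArD_0h libraries, whose counts were 8, 24 and 10. The log2 difference was 2.24 (SE 0.353, edgeR adjusted p = 0.000159), and 1.88 without ArD_0h replicate 1.

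The 17 peaks called lower had a median log2 difference of -1.25 and adjusted p of 0.000623 to 0.0299 (edgeR), and their genes had a median length of 699 bp. In all 17 the groups did not overlap, so that ArD_0h replicate 1 could not be the lowest library in any of them. The calls were made on these same values. The 10 with the largest fall are named below, with no condition on level.

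The largest fall was at evm.TU.ctg407.6, a gene of 302 bp with a peak on ctg407 from 403034 to 403276. It had 6.11, 3.97 and 4.36 CPM in ArD_0h and 1.01, 1.65 and 0.936 CPM in ArR_5h. All ArR_5h libraries were below all ArD_0h libraries, at a low level. The log2 difference was -1.97 (SE 0.475, edgeR adjusted p = 0.00308), and -1.76 without ArD_0h replicate 1. With the trend on level removed and without that library, it was no longer called (log2 -1.09, adjusted p = 0.09).

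The strongest of the lower peaks by mean level in ArD_0h was that of evm.TU.ctg1033.9, a gene of 183 bp that the peak covered entirely (ctg1033 from 426442 to 427719). It had 101, 79.1 and 84.6 CPM in ArD_0h and 33.8, 33.8 and 44.0 in ArR_5h. The groups were far apart, and ArD_0h replicate 1 was here the highest library. The log2 difference was -1.25 (SE 0.259, edgeR adjusted p = 0.00109), and -1.15 without that library.

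The peak of evm.TU.ctg486.14, 1868 bp wide at a gene of 5292 bp (ctg486 from 308034 to 309901), had 81.8, 82.9 and 80.5 CPM in ArD_0h and 23.9, 30.8 and 38.6 in ArR_5h. The ArD_0h libraries were nearly equal, and each exceeded every ArR_5h library. The log2 difference was -1.40 (SE 0.267, edgeR adjusted p = 0.000623), and -1.42 without ArD_0h replicate 1. This was the only lower call at a gene above 5000 bp.

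The peak of evm.TU.ctg615.33 (2718 bp; ctg615 from 1497245 to 1497744) had 22.7, 12.2 and 14.8 CPM in ArD_0h and 4.72, 5.78 and 6.55 in ArR_5h. That of evm.TU.ctg3495.2 (2014 bp; ctg3495 from 42103 to 42496) had 16.4, 11.1 and 7.02 CPM in ArD_0h and 3.04, 4.24 and 4.49 in ArR_5h. That of evm.TU.ctg1656.15 (699 bp; ctg1656 from 433114 to 433408) had 7.92, 4.89 and 7.78 CPM in ArD_0h and 1.46, 2.71 and 1.69 in ArR_5h. None of these overlapped between groups, and in each ArD_0h replicate 1 was the highest library. The log2 differences were -1.56, -1.58 and -1.79, with edgeR adjusted p of 0.000635, 0.001 and 0.00114, and -1.27, -1.25 and -1.67 without that library.

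Of the other lower peaks with the largest falls, that of evm.TU.ctg205.3 (810 bp) had 97.4, 47.0 and 53.7 CPM in ArD_0h and 15.4, 25.1 and 39.7 in ArR_5h. That of evm.TU.ctg162.11 (179 bp) had 14.2, 7.18 and 7.97 CPM in ArD_0h and 3.93, 2.95 and 5.24 in ArR_5h. In both, ArD_0h replicate 1 stood above the other ArD_0h libraries. Their log2 difference of -1.31 each became -0.95 and -0.94 without it, inside the limit of 1. The peaks of evm.TU.ctg144.11 (537 bp) and evm.TU.ctg1166.2 (380 bp) had log2 differences of -1.25 and -1.24, and -1.28 and -1.34 without that library. The call of evm.TU.ctg144.11 was lost without ArD_0h replicate 3, ArR_5h replicate 1 or ArR_5h replicate 2 (edgeR adjusted p = 0.0549, 0.0541 and 0.0501), and that of evm.TU.ctg205.3 without ArR_5h replicate 1 (adjusted p = 0.0556).

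**Figure D5:**
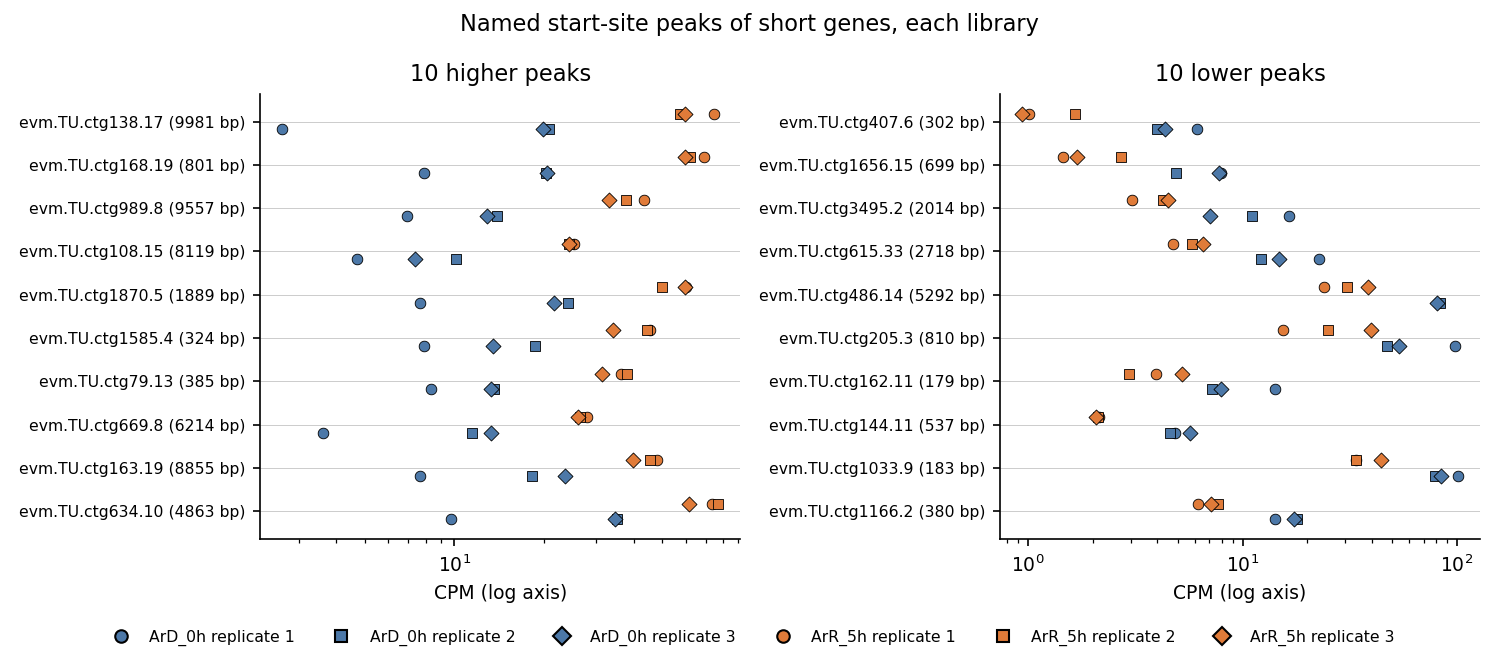
CPM (log axis) in each library of the 10 named higher peaks (left) and the 10 named lower peaks (right), with ArD_0h in blue, ArR_5h in orange and a marker shape for each replicate number. In none of the 20 do the groups overlap, and in the higher peaks the blue circle of ArD_0h replicate 1 is the lowest point in each row.

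The strongest short-gene start-site peaks per length did not include a called fall. The highest was that of evm.TU.ctg664.10 (7461 bp; ctg664 from 510404 to 511217), at 107 CPM per kb. It had 23.5, 79.9 and 74.8 CPM in ArD_0h and 126, 113 and 105 in ArR_5h, a log2 difference of 0.95 (SE 0.316, edgeR adjusted p = 0.0207), which was inside the limit of 1. Without ArD_0h replicate 1, whose level was far below the rest, the value was 0.56. Next came evm.TU.ctg634.8 (72.0 CPM per kb, log2 difference 0.96), evm.TU.ctg138.17 described above, evm.TU.ctg879.4 (62.1 CPM per kb, 0.39) and evm.TU.ctg187.9 (62.0 CPM per kb, 0.55). For evm.TU.ctg879.4 and evm.TU.ctg187.9 the groups overlapped, and the difference was not called (edgeR adjusted p = 0.269 and 0.241). Without ArD_0h replicate 1 it was 0.06 and 0.08.

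Functional terms from the study's supplementary list of genes were matched to 21 of the 299 genes (7.02%), and to 7.44% of the longer genes. Of these 21 peaks, 9 (42.9%) were called higher and 0 lower, where 14.5% and 15.2% of all tested peaks were called, and their median log2 difference was 0.96. Without ArD_0h replicate 1, 3 (14.3%) were higher, near the 10.8% of all peaks, 0 were lower, and the median was 0.56. In the fit with the trend removed, 4 were higher and 1 was lower, the lower one being evm.TU.ctg391.6 (9664 bp, log2 -1.14, edgeR adjusted p = 0.0016), and without that library as well 3 were higher and 1 lower. The terms cover genes that the study selected between the ArD_0h libraries and libraries taken 30 min after EDT, and some may also have been selected on the ArR_5h libraries, so that this is not independent evidence of a direction. The 278 genes without a term had 56 (20.1%) higher, 17 (6.12%) lower and a median of 0.39. Without ArD_0h replicate 1 they had 35 (12.6%) higher, 17 (6.12%) lower and a median of 0.20, against 10.8% and 12.6% of all peaks called.

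The terms of DNA binding, carried by proteins such as transcription factors that contact chromatin, were matched to 6 genes, of which 2 were called higher (33.3%, against 14.5% of all tested peaks) and 1 without ArD_0h replicate 1 (16.7%, against 10.8%). So few genes allow no comparison of these shares. The peak of evm.TU.ctg38.21 (6472 bp) had 1.81, 9.01 and 3.99 CPM in ArD_0h and 22.6, 21.2 and 16.7 in ArR_5h, a log2 difference of 2.03 (edgeR adjusted p = 0.00047), and 1.60 without ArD_0h replicate 1. The groups did not overlap. The peak of evm.TU.ctg408.26 (5207 bp) had 10.1, 23.2 and 19.5 CPM in ArD_0h and 43.7, 42.0 and 38.4 in ArR_5h, a log2 difference of 1.23 (adjusted p = 0.00405) that became 0.94 without that library. The peak of evm.TU.ctg647.14 (1491 bp), whose terms also hold transcription factor activity, had 18.8, 70.9 and 70.6 CPM in ArD_0h and 107, 104 and 85.2 in ArR_5h, and its log2 difference of 0.89 (adjusted p = 0.037) was inside the limit.

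Methyltransferases transfer methyl groups between molecules such as DNA, RNA and proteins. Of the 3 matched genes, 2 were called higher (66.7%, against 14.5% of all tested peaks), and 1 without ArD_0h replicate 1 (33.3%, against 10.8%). So few genes allow no comparison of shares here either. The gene evm.TU.ctg2203.5 (9849 bp), whose terms name a methylated-DNA cysteine S-methyltransferase, an enzyme of DNA repair that takes alkyl groups off damaged bases, had 0.973, 3.82 and 3.80 CPM in ArD_0h and 9.67, 9.43 and 7.12 in ArR_5h. Its log2 difference was 1.65 (edgeR adjusted p = 0.00193), and 1.20 without ArD_0h replicate 1. The gene evm.TU.ctg279.17, of 164 bp and covered by its peak, had 7.09, 11.3 and 11.0 CPM in ArD_0h and 22.5, 20.9 and 22.7 in ArR_5h. Its log2 difference of 1.17 became 0.97 without that library. Groups did not overlap in either gene. The terms of evm.TU.ctg279.17 also name anaerobic respiration and methanogenesis, and those of the other matched gene, evm.TU.ctg865.10, name sporulation. The functions of these genes in a brine shrimp are thus uncertain.

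The peak of evm.TU.ctg543.12 (339 bp), with a term for oxidoreductase activity, the transfer of electrons between substrates, had 3.89, 2.44 and 3.80 CPM in ArD_0h and 14.4, 10.7 and 7.30 in ArR_5h. ArD_0h replicate 1 was not low here, and the log2 difference of 1.69 (edgeR adjusted p = 0.000602) was 1.83 without it. The peak of evm.TU.ctg12.7 (5466 bp), with a term for protein kinase activity, had 2.22, 17.4 and 11.2 CPM in ArD_0h and 27.1, 20.4 and 24.0 in ArR_5h, and its log2 difference of 1.22 (adjusted p = 0.0222) became 0.71 without that library and was not called by DESeq2 (adjusted p = 0.198). The peak of evm.TU.ctg62.4 (5381 bp), with terms for signal transduction, had counts of 72, 228 and 170 in ArD_0h and 547, 467 and 332 in ArR_5h. These were 25.7 ± 13.6 and 59.6 ± 3.92 CPM (SD, n = 3), and the log2 difference of 1.22 became 0.82 without ArD_0h replicate 1. The start of another listed gene on the opposite strand lay inside this peak, so that its difference cannot be assigned to either gene alone. A further signalling gene, evm.TU.ctg372.17 (754 bp), with a term for cell surface receptor signalling, had a log2 difference of 0.78 and did not pass the test (adjusted p = 0.0692). The log2 differences of 0.51 at evm.TU.ctg142.8 (transcription factor activity, transport and zinc ion binding) and 0.62 at evm.TU.ctg1628.1 (zinc ion binding), did not pass it either.

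At the limit of 10000 bp, the longest genes inside were evm.TU.ctg138.17, described above, and evm.TU.ctg179.19 (9971 bp), whose peak had a log2 difference of 0.36. Just outside were evm.TU.ctg3.10 (10063 bp, log2 difference 1.14) and evm.TU.ctg835.2 (10085 bp, 0.35). The shortest genes were evm.TU.ctg1192.6 (155 bp, -0.30) and evm.TU.ctg156.13 (162 bp, 0.46), both covered by their peak. The widest peak, of 2260 bp, covered evm.TU.ctg1450.9 (573 bp) and had 40.4, 53.2 and 62.8 CPM in ArD_0h and 43.2, 46.0 and 38.6 in ArR_5h, with overlapping groups and a log2 difference of -0.29 (edgeR adjusted p = 0.388).

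The other peaks listed for the same 299 genes were called at shares near those of all peaks. Of 2328 other tested peaks, 334 (14.3%) were called higher and 375 (16.1%) lower, near the 14.5% and 15.2% of all tested peaks, and their median log2 difference was -0.09. The 1081 peaks upstream of the genes had 139 (12.9%) higher and 199 (18.4%) lower, and the 1097 beyond their ends 175 (16.0%) and 167 (15.2%). The 150 inside the genes had 20 (13.3%) higher and 9 (6.0%) lower, a share of falls near the 5.69% at the starts. Without ArD_0h replicate 1, 3.33% of these 150 were lower. In the fit without ArD_0h replicate 1, 11.2% of these other peaks were called higher and 13.6% lower, beside 12.7% and 5.69% of the starts. Once the trend on level was removed, 13.7% were higher, beside 13.4% of the starts, and with both changes 10.2%, beside 7.02%. A larger share of rises at the starts than at the other peaks was thus not seen with the trend removed. Falls still made up a smaller share at the starts, at 9.7% beside 15.2% with the trend removed and 5.69% beside 11.4% with both changes. Among the other peaks, those inside the genes had 7.33% and 4.67% lower in these fits. These differences in shares were not tested. Peaks inside the longer genes had a median of 0.13, with 19.7% higher and 7.31% lower.

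The other peaks of genes with a called start were compared with all tested peaks. Of the 65 genes with a higher start, 61 had other tested peaks, and these 526 peaks had 131 (24.9%) higher, against 14.5% of all tested peaks, 70 (13.3%) lower, near the 15.2% of all, and a median log2 difference of 0.38. Another higher peak was listed for 36 of these genes and a lower one for 29. These counts were not set beside those of all genes. With 526 other peaks at 61 genes, a called one is easily found at a gene. The 17 genes with a lower start had 135 other tested peaks, with 12 (8.89%) higher, 53 (39.3%) lower and a median of -0.86. Without ArD_0h replicate 1 the same 526 peaks had 100 (19.0%) higher and 59 (11.2%) lower, and the same 135 peaks 8 (5.93%) higher and 42 (31.1%) lower, against 10.8% and 12.6% of all peaks. At least 1 other lower peak was listed for 14 of these 17 genes, again without the same count over all genes. Peaks of a gene lie near each other on a contig and share the same libraries, and these differences were not tested.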

How the data were processed

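The authors trimmed reads with skewer, mapped them with BWA to the *A. franciscana* assembly, filtered on mapping quality, dropped duplicates and mitochondrial reads, and called peaks with MACS2. The labels name BWA and MACS2. They described the spread of peaks over functional regions with ChIPseeker, without naming the tool behind the nearest gene in the table. A Tn5 shift and the counting tool are not given in the sources used here. The authors' deposited counts are raw whole-number counts per merged peak and library. The deposited RPM values equal the count plus 1 over a library total, and served only to recover those totals.

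Counts of all 112790 peaks entered edgeR 4.0.16 in R 4.3.3 (filterByExpr, TMM, quasi-likelihood test, Benjamini-Hochberg adjustment over the 112211 tested peaks, no block), for 3 ArR_5h against 3 ArD_0h libraries. SE is the log2 difference over the root of F. Single log2 CPM used a prior count of 2. DESeq2 1.42.0, other scalings, no filter, a replicate block, other limits and leaving out each library were alternatives. The procedure was tested on simulated counts. Summaries used Python 3.11.15 and pandas 2.3.3. Replicates were of one batch of cysts, so that p-values measure the spread between these libraries.

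The members and lists were chosen with earlier results of these data known. Named peaks were, by rule, the 10 higher peaks with the largest difference (at least median level, no overlap), the 10 lower peaks with the largest fall, the 5 strongest per kb, the 2 with the largest difference in each functional class, the 2 at either side of the length limit, the 2 shortest genes and the 2 widest peaks. Genes with several start-site peaks were also to be named, but there were none. No genome sequence was used here.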

Additional observations from a re-analysis of the deposited data

How the results depend on the processing

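With the trend on level removed, 40 short-gene peaks were higher and 29 lower, beside 65 and 17, and 538 longer-gene peaks higher, beside 915. With ArD_0h replicate 1 left out as well, 21 short-gene and 250 longer-gene peaks were higher and the short-gene median was 0.05. With no limit on the log2 difference, 101 short-gene peaks were higher and 27 lower, and 1390 longer-gene peaks higher. With a length limit of 5000 bp, 31 peaks (16.6%) were higher, against 14.5% of all peaks. The short-gene median then lay 0.55 below that of the longer genes (-0.55, beside -0.26), and the share difference was 0.0476 percentage points. With 20000 bp, 162 (26.1%) were higher and the share difference was 0.377. The share difference over library totals was 0.0281. The library totals behind the RPM values moved the median of all peaks from -0.07 to 0.09. They gave 89 higher (29.8%) and 12 lower (4.01%) short-gene peaks, where 18.9% and 10.6% of all peaks were called, and 6 lower longer-gene peaks. An adjusted p of at most 0.01 left 10 of the 18 lower longer-gene calls.

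Leaving out 1 library at a time gave 38 to 89 higher (12.7% to 29.8%) and 10 to 18 lower (3.34% to 6.02%) short-gene peaks. Of all peaks, 10.1% to 17.2% were called higher and 8.49% to 15.6% lower in these fits. Longer-gene peaks had 449 to 1359 higher and 8 to 17 lower. The short-gene medians were 0.23 to 0.66, the difference of medians -0.28 to -0.19 and the share difference 0.0788 to 0.147. The lowest count of higher calls, 38, came without ArD_0h replicate 1, and the lowest count of lower calls, 10, without ArR_5h replicate 1. The cause of these changes was not tested. The DESeq2 test called 68 short-gene peaks (22.7%) higher and 16 (5.35%) lower, where 15.1% and 14.3% of all peaks were called.

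The correlations of deviations from the group mean were -0.207, 0.004 and -0.145 for same-numbered libraries, so that no shared deviation was seen. These values cannot settle whether the libraries were paired. The deviations of the 3 libraries of a group are tied to each other at each peak. With the replicate number as a block, 79 short-gene peaks (26.4%) were higher and 16 (5.35%) lower, where 14.7% and 13.6% of all peaks were called. Among longer-gene peaks 1047 were then higher and 15 lower.

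Of 615 values of named peaks under the alternatives, 565 kept the same call or lack of a call. Another 33 lost the call, 17 gained one and 0 turned to a call in the other direction. The sign of uncalled peaks could change. With the trend on level removed and without ArD_0h replicate 1, evm.TU.ctg179.19 went from 0.36 to -0.31 and evm.TU.ctg142.8 from 0.51 to -0.18. Depth limits the 13 short-gene peaks with a count under 10.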

Other observations

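The 299 short-gene start-site peaks lay on 263 contigs, and 30 contigs held several of them, 66 in all. On 6 contigs there were 3. Contigs and genes in the following sentences were chosen after their values were seen. On ctg168 all 3 short-gene peaks were called higher. Besides evm.TU.ctg168.19, evm.TU.ctg168.9 had 0.973, 2.44 and 3.61 CPM in ArD_0h and 5.62, 6.96 and 3.56 in ArR_5h, with a slight overlap of the groups and a log2 difference of 1.26. There evm.TU.ctg168.20 had 5.28, 6.72 and 12.1 CPM in ArD_0h and 18.5, 16.0 and 20.2 in ArR_5h, with a log2 difference of 1.20. Without ArD_0h replicate 1 both fell below the limit of 1, at 0.87 and 0.96.

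On 2 contigs a higher and a lower short-gene start were found together. On ctg1166 the peak of evm.TU.ctg1166.2 (380 bp) had counts of 102, 118 and 91 in ArD_0h and 55, 65 and 38 in ArR_5h, with 16.5 ± 2.04 and 6.99 ± 0.749 CPM (SD, n = 3). The peak of evm.TU.ctg1166.4 (5239 bp), 56753 bp further on, had 1.39, 4.12 and 4.36 CPM in ArD_0h and 14.6, 14.1 and 14.6 in ArR_5h. These starts moved in opposite directions with no overlap of libraries in either, at log2 differences of -1.24 and 2.16. On ctg256 the peak of evm.TU.ctg256.11 (3260 bp) had a log2 difference of -1.05 and that of evm.TU.ctg256.23 (8252 bp) one of 1.35, and without ArD_0h replicate 1 these were -0.67 and 1.01.

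The closest pair of short-gene start-site peaks, 170 bp apart, had differences of the same sign. On ctg1060 the peaks of evm.TU.ctg1060.20 and evm.TU.ctg1060.21 had log2 differences of -0.85 and -1.07, of which only that of evm.TU.ctg1060.21 was called (edgeR adjusted p = 0.00716, and 0.124 for the other).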
